A study of Mus musculus with 12 samples.

Results

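The response to RANKL of bone marrow-derived macrophages (BMMs) that lack the microRNA miR-182 was measured by RNA-seq in 2 basal and 2 RANKL libraries, chosen by their genotype and stimulation labels from the 12 libraries of the series. RANKL is the cytokine that turns macrophages into osteoclasts, the multinucleated cells that dissolve bone. It binds the receptor RANK on the precursor and acts through TRAF adaptors, NF-κB and AP-1, which together switch on the transcription factor NFATc1 and with it the genes for cell fusion, adhesion to bone, acid secretion and matrix degradation. The same precursors can also make interferon-β after RANKL, and interferon signaling restrains osteoclast formation. The question was which genes RANKL changed in these cells.

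The cells came from Mir182flox/flox LysMcre(+) mice, called Mir182ΔM/ΔM, in which a Cre recombinase under the lysozyme M promoter removes *Mir182* in myeloid cells. The strain is given as C57BL/6, which the study states for the background of the LysMcre line. Bone marrow cells were grown with M-CSF for 3 days to give BMMs, and the RANKL group was then treated with RANKL for 5 days. By the study's general culture methods, the source of M-CSF stayed in the medium during treatment. The labels do not say how long the basal group, which received no RANKL, was kept, and the age of these mice is not given in the sources used here. The study's figure legend gives 5 days for stimulation with or without RANKL, so the basal cells may have been kept as long. If they were not, time in culture and RANKL cannot be told apart. The response rests on 2 replicates in each group, 4 libraries in all. A further 4 libraries, the basal and RANKL groups of WT cells with the genotype Mir182+/+ LysMcre(+), served to ask where the 2 responses differ. They also entered the fit over 8 libraries and the fits that left out a library, but not the main calls. Both genotypes carry Cre, and the WT RANKL libraries stand apart from the rest, with values given beside that comparison. The study calls the replicates biological, and where they did not come from separate mice or cultures the p-values do not cover the spread between those. They rest on the spread between libraries taken over all genes together, not on that of each gene.

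Of 24421 genes listed, 11330 reached a level of 1 CPM, the number of reads of a gene scaled to the reads of the library, in at least 2 of the 4 libraries and were tested. The libraries held 25414004 to 30445668 reads on genes, and 3 reads correspond to 0.0985 to 0.118 CPM. Values are CPM, given for replicate 1 and then replicate 2, and a log2 change is the difference of log2(CPM + 1) between RANKL and basal cells with its standard error (SE). It understates the change of genes with few reads. Differences were tested with limma with the replicate number as a block, and a gene was called raised or lowered where the adjusted p-value over all tested genes was under 0.05 and the fold change was at least 1.5. With 1 residual degree of freedom a gene, limma took the spread of each gene wholly from the trend over all genes. The SE therefore follows the level of a gene, from 0.0327 to 0.164, and not its own scatter. The *Mir182* row itself held at most 1 read in every library of the 4, so the deletion could not be checked from the gene counts. For orientation, the strands of the missing microRNA are given with the seed, bases 2 to 8, in capitals. They come from RefSeq and lie on the minus strand of chromosome 6 at chr6:30165923-30165986 of GRCm38.p6.
mmu-miR-182-5p: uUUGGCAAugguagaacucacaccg
mmu-miR-182-3p: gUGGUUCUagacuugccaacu

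RANKL raised 2046 genes (18.1% of those tested) and lowered 1816 (16.0%) in Mir182ΔM/ΔM cells. Of these, 267 rose and 199 fell by at least 4-fold. All 3862 called genes moved the same way in both replicates, as did 92.5% of all tested genes, and for 3847 of them the basal and RANKL libraries did not overlap, as for 78.3% of all tested genes. Across the tested genes the log2 changes of replicate 1 and replicate 2 correlated with Pearson's r of 0.983, a description over genes, which are not independent replicates. The largest adjusted p-value of limma among the called genes was 2.1e-04, and in a fit that took the spread from all 8 libraries of both genotypes it was 0.0053. With an SE from the trend of at most 0.164, a change past the fold limit also passes the adjusted p-value, which 9081 genes did. The small p-values of the called genes are therefore no separate support, and the fold limit sets the calls.

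**Figure D1:**
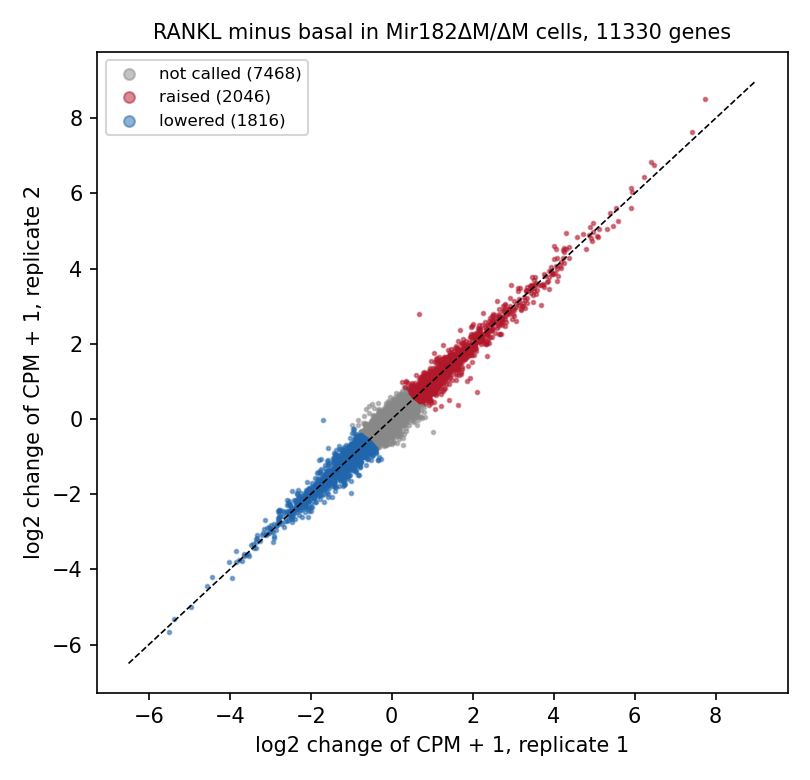
Log2 change of CPM + 1 with RANKL in replicate 1 (x axis) and replicate 2 (y axis) of Mir182ΔM/ΔM cells, 1 point for each of 11330 tested genes, with the line of equal change dashed. The 2046 raised genes (red) and the 1816 lowered genes (blue) lie along the line, and the 7468 genes that were not called (grey) lie around 0.

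By the log2 change of CPM + 1, the gene that rose most was *Mmp9*, which encodes the gelatinase that osteoclasts release. It stood at 7.88 and 3.92 CPM in the basal libraries and at 1881 and 1790.0 CPM after RANKL, a log2 change of 8.12 (SE 0.042), or 311-fold in mean CPM. Next came *Cav1*, the coat protein of caveolae, which went from 0.925 and 0.522 CPM to 331 and 303 CPM (log2 change 7.54, SE 0.072). In both genes every RANKL library was far above every basal library. Tartrate-resistant acid phosphatase (*Acp5*) and cathepsin K (*Ctsk*), the classical osteoclast enzymes, changed by nearly the same amount. *Acp5* rose from 5.00 and 3.81 to 509.8 and 553 CPM and *Ctsk* from 4.51 and 4.07 to 492 and 547 CPM, log2 changes of 6.63 and 6.62. *Mycl*, a member of the MYC family of transcription factors, was close to undetected at baseline with 0.222 and 0 CPM and reached 90.8 and 85.7 CPM. The order of *Mmp9*, *Cav1* and *Mycl* depends on the pseudocount. With 0.1 CPM the log2 changes were 8.94 for *Mycl*, 8.63 for *Cav1* and 8.34 for *Mmp9*, and edgeR and DESeq2 gave the same order. The remaining members of the 15 largest rises fell into a few kinds. *Traf1* (log2 change 6.03), an adaptor of TNF receptors, and the tyrosine kinases *Src* (5.43) and *Fgr* (5.18) transmit signals. Complement *C3* (5.99) and the complement regulator *Cd55* (5.43) belong to innate defense, and *Cxcl10* (5.09) is a chemokine induced by interferon. *Vcan* (5.76), a matrix proteoglycan, *Vegfc* (5.57), a growth factor of lymphatic vessels, *Gfra2* (5.30), a receptor of the GDNF family, and *Gstt1* (5.09), a glutathione transferase, completed them.

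The largest falls were spread over transporters, receptors and enzymes. *Slco2b1*, an organic anion transporter, dropped from 140.1 and 152 CPM to 2.13 and 2.01 CPM, a log2 change of −5.58 (SE 0.075). *F13a1*, the A subunit of coagulation factor XIII, went from 249.9 and 232 to 4.99 and 4.84 CPM, and the endothelin receptor *Ednrb* from 369 and 331 to 11.0 and 9.36 CPM. In these 3 genes both RANKL libraries lay far under both basal libraries. The iron exporter ferroportin (*Slc40a1*) was at 422 and 463 CPM in basal cells and at 18.6 and 24.4 CPM after RANKL (log2 change −4.32, SE 0.043). Lipid metabolism was represented by the desaturases *Fads2* (log2 change −3.91) and *Scd1* (−3.62) and the mitochondrial acetyl-CoA synthetase *Acss1* (−3.74). *Gpx3* (−3.82) encodes a secreted glutathione peroxidase, *Chil3* (−3.77) a chitinase-like lectin, *Tox2* (−3.60) an HMG-box protein and *Atp2a3* (−3.58) a calcium pump of the endoplasmic reticulum. *Tmem154* (−4.50), *Nxpe5* (−3.64) and *Gm4980* (−3.68) were also among the 15, as was the granule enzyme *Mpo* (−4.09).

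**Figure D2:**
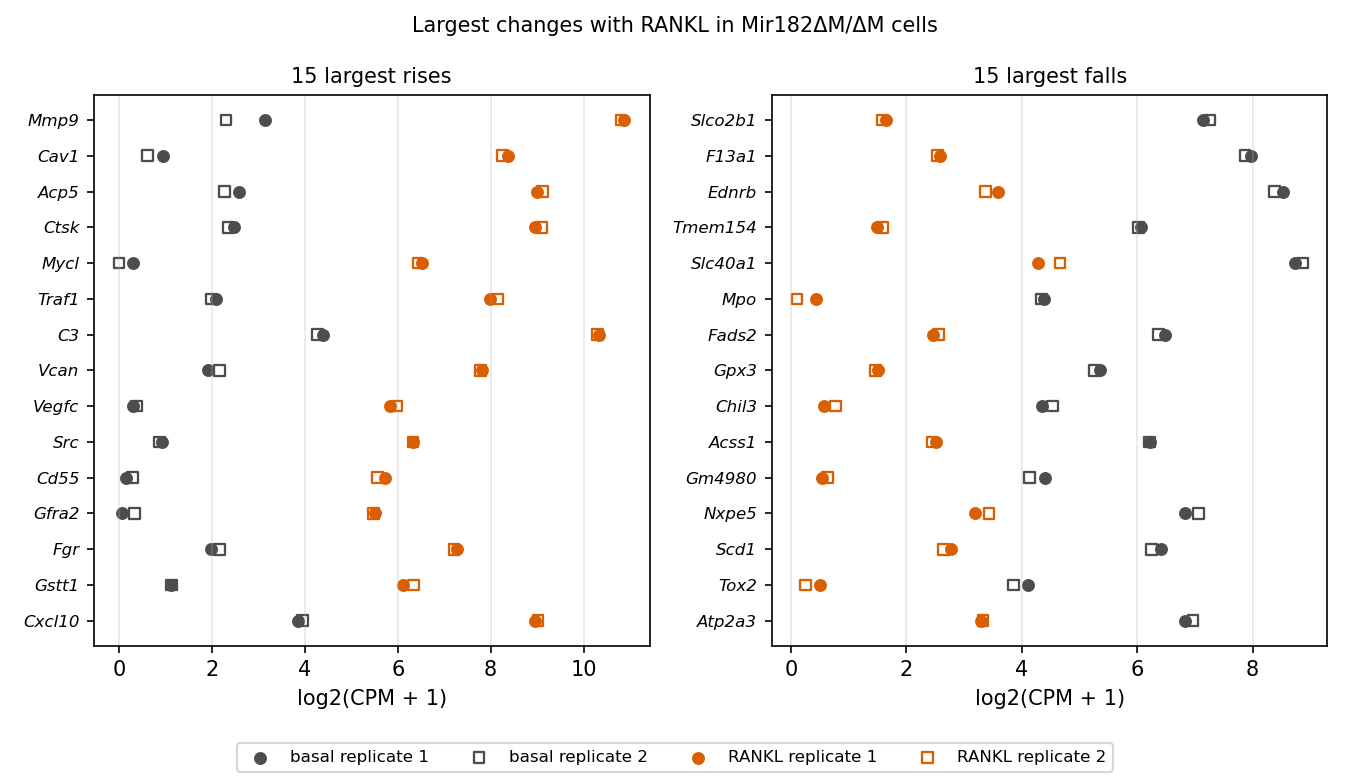
Level of the 15 genes with the largest rise (left) and the 15 with the largest fall (right) after RANKL in Mir182ΔM/ΔM cells, in log2(CPM + 1) on the x axis. Grey marks are basal and orange marks RANKL libraries, circles replicate 1 and squares replicate 2, and in all 30 genes the basal and RANKL libraries are far apart.

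Replicate 1 also carries RPKM, which divides CPM by gene length and so allows levels to be compared between genes. By RPKM, the most abundant messages of basal cells were ferritin heavy chain (*Fth1*), at 7554 RPKM, thymosin β4 (*Tmsb4x*), at 7320.0 RPKM, and cathepsin D (*Ctsd*), at 7074 RPKM. After RANKL *Tmsb4x* led with 6642 RPKM, followed by the MHC class I light chain *B2m* with 4677 RPKM, which had been at 1875 RPKM and in position 11. *Fth1* had dropped to 2363 RPKM and position 6. Of the other genes among the 10 most abundant after RANKL, the protease *Ctss* rose (log2 change of CPM + 1 0.70), while *Ctsd* (−0.84) and prosaposin (*Psap*, −0.98) fell. *Ctsd* changed by only −0.06 and *Psap* by −0.36 under quantile normalization, which pulls the top of each library together. The log2 changes of *Actb* (0.24), *Ftl1* (−0.47), *S100a4* (0.41) and *Gpnmb* (0.25) stayed under the fold limit.

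Among 15 transcription factors that drive osteoclast formation, RANKL raised 10 and lowered 1, with a median log2 change of 1.60 against 0.05 over all tested genes. Counts for this and the lists that follow are read against the 18.1% raised and 16.0% lowered among all genes. The AP-1 gene *Fos* had the largest rise, from 16.5 and 15.4 CPM to 256 and 249 CPM (log2 change 3.90, SE 0.049). *Jdp2*, another AP-1 gene, went from 13.6 and 11.0 to 117 and 105 CPM. *Bhlhe40* (log2 change 2.61), *Nfkb2* (2.57) and *Myc* (2.40) followed, and *Nfkb2* encodes the p100 precursor of the alternative NF-κB pathway. *Prdm1*, which encodes the repressor Blimp1, was at 8.81 and 8.02 CPM and then at 29.2 and 25.9 CPM, a log2 change of 1.60 (SE 0.083). *Jun* fell from 150.3 and 137 to 74.7 and 61.9 CPM. *Nfatc1* itself was not called. Its level was 107 and 90.3 CPM in basal cells and 122 and 100.5 CPM after RANKL, so the libraries of both groups overlapped, and its log2 change was 0.18 (SE 0.043, limma adjusted p = 5.8e-05). In each replicate the RANKL library was the higher one. *Mitf* (log2 change −0.16), *Tfec* (−0.23) and *Esrra* (0.22) did not pass either.

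The 8 genes that hold back osteoclast formation split, with 4 raised, 2 lowered and a median log2 change of 0.38. *Irf8*, a repressor of the NFATc1 program, fell from 178 and 168 CPM to 33.5 and 34.9 CPM (log2 change −2.30, SE 0.046). *Rbpj*, the nuclear partner of Notch, fell from 308 and 292 to 152 and 148 CPM. *Id3*, an inhibitor of DNA binding by bHLH factors, rose from 0.925 and 0.970 CPM to 20.3 and 26.2 CPM (log2 change 3.63). The repressor *Bcl6* (0.08) was not called, at 71.9 and 62.6 CPM before and 76.7 and 65.7 CPM after RANKL. The groups of *Bcl6* overlapped, and those of *Irf8* and *Rbpj* did not.

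On the receptor side, 6 of 20 genes of RANK and M-CSF receptor signaling rose and 2 fell, with a median of 0.09. *Traf1*, described among the largest rises, is one of the 6. The genes that rose were mostly NF-κB components and regulators. The inhibitor *Nfkbia* went from 48.4 and 54.7 to 236 and 243 CPM and the adaptor *Traf3*, which restrains alternative NF-κB signaling, from 42.6 and 46.3 to 176 and 188 CPM. *Traf2* rose with a log2 change of 1.71, and RANK itself (*Tnfrsf11a*) rose from 104 and 92.2 CPM to 256 and 248 CPM (log2 change 1.35, SE 0.039). *Traf6*, the adaptor that RANK needs, was at 69.5 and 63.0 CPM and 56.1 and 50.7 CPM, a log2 change of −0.31 that is under the fold limit. The M-CSF receptor *Csf1r* was also not called, at 2063 and 2176 CPM and then 1444 and 1512 CPM, while the scaffold *Gab2* (−0.85) and the alternative RANKL receptor *Lgr4* (−0.76) fell, the latter not called with a pseudocount of 5 CPM. Costimulation by ITAM receptors gave 4 raised and 3 lowered of 13 genes. *Oscar*, a collagen receptor that signals through the FcRγ chain, rose from 0.0740 and 0.0746 CPM to 18.5 and 16.3 CPM. Its basal value comes from 2 reads in each library. The exchange factor *Vav3* (−2.07), the kinase *Tec* (−1.19) and the receptor *Trem2* (−0.65) fell, and the adaptor *Tyrobp* (0.41) was not called.

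Of 13 bone resorption genes 8 were raised and 2 lowered, with a median of 3.37. Beyond *Mmp9*, *Acp5* and *Ctsk*, the membrane protease *Mmp14* rose from 0.740 and 0.970 CPM to 30.1 and 32.2 CPM, and the sodium-proton exchanger *Slc9b2* from 1.55 and 2.24 to 29.4 and 38.9 CPM. Carbonic anhydrase II (*Car2*), which supplies the protons, was at 0.148 and 0 CPM and then at 11.6 and 10.4 CPM. The calcitonin receptor *Calcr* had no read in either basal library and 9.07 and 9.68 CPM after RANKL, which is at least 84.1-fold higher when the RANKL mean is set against a floor of 3 reads per library. The genes of the acid-secreting membrane moved less. The a3 subunit of the proton pump (*Tcirg1*, 0.22), the chloride channel *Clcn7* (−0.08) and the bicarbonate exchanger *Slc4a2* (0.30) were not called, and *Ostm1* (−0.60), the partner of *Clcn7*, and *Plekhm1* (−1.05), a trafficking adaptor, fell. The call of *Ostm1* was lost with a pseudocount of 5 CPM and without replicate 1 of either group.

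In the wider V-ATPase list, 17 of 18 subunits were tested, 1 rose and 3 fell, and the median was −0.10. The share of lowered subunits is near that of all genes. The d2 subunit *Atp6v0d2*, which also serves cell fusion, rose from 41.6 and 31.9 CPM to 118 and 95.7 CPM (log2 change 1.52, SE 0.049). The a1 subunit *Atp6v0a1* fell from 569 and 550.1 CPM to 157 and 151 CPM (−1.85). Lysosomal proteins as a list moved down, with 8 of 22 lowered, 3 raised and a median of −0.48. The proteases legumain (*Lgmn*, −1.49) and cathepsin B (*Ctsb*, −1.21) fell, although the fall of *Ctsb* was −0.14 and not called under quantile normalization. Cathepsin L (*Ctsl*, 1.04) and the cholesterol carrier *Npc2* (0.85) rose.

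Of 10 fusion genes 6 rose and 1 fell (median 0.94). The fusion receptor *Dcstamp* went from 0.444 and 0.224 CPM to 27.7 and 36.8 CPM (log2 change 4.63, SE 0.11). Its relative *Ocstamp* went from 0.185 and 0.0373 CPM to 22.2 and 22.7 CPM. Both were nearly silent in basal cells. *Cd44* rose from 347 and 309 to 795 and 703 CPM and the tetraspanin *Cd81* fell with a log2 change of −0.73. Of 21 podosome and integrin genes 6 rose and 1 fell, and the median was −0.05. *Src*, the kinase needed for the ruffled border, climbed from 0.888 and 0.821 CPM to 78.8 and 79.5 CPM. The integrin chain *Itgb3*, which forms the vitronectin receptor, rose from 15.7 and 15.6 CPM to 83.7 and 82.6 CPM (log2 change 2.34, SE 0.06) together with its partner *Itgav* (0.96). *Dock5* (2.72), an activator of Rac, and cortactin (*Cttn*, 2.30) rose, whereas the GTPase *Rac2* fell (−0.75). Of 11 factors through which osteoclasts signal to bone-forming cells 5 were tested. *Pdgfb* rose from 9.36 and 9.96 CPM to 116 and 115 CPM, *Sema4d* from 177 and 193 to 705 and 731 CPM, and *Hgf* fell from 14.5 and 14.0 to 2.59 and 2.95 CPM. All 10 osteoclast markers, drawn from these lists, were raised, with a median log2 change of 4.25.

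**Figure D3:**
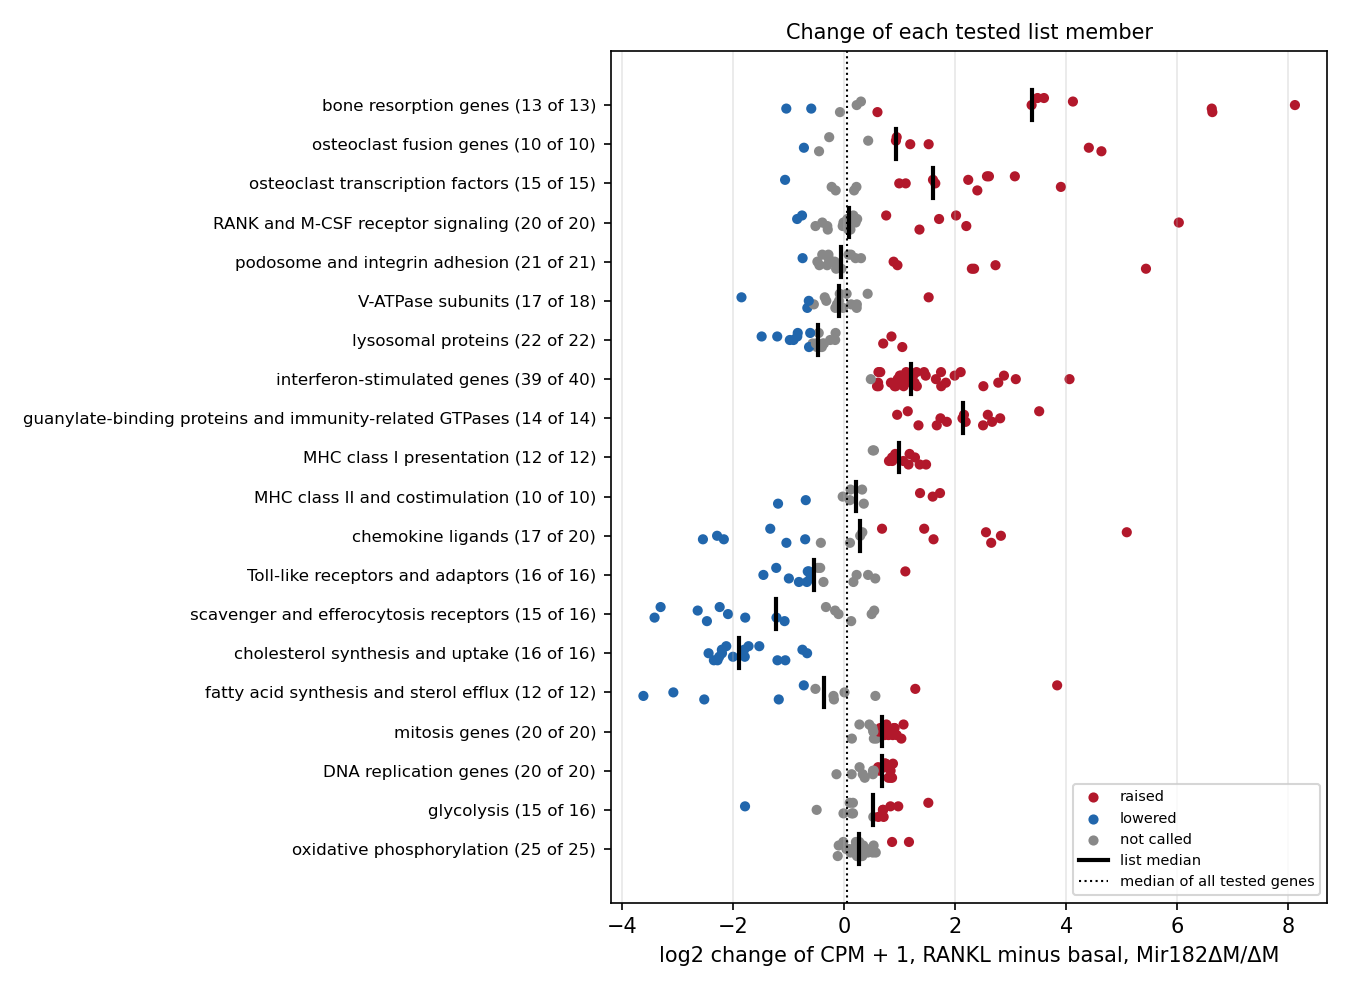
Log2 change of CPM + 1 with RANKL (x axis) of each tested member of 20 gene lists in Mir182ΔM/ΔM cells, with tested and listed numbers in parentheses. Red points are raised, blue lowered and grey not called, bars are list medians and the dotted line is the median of all tested genes, 0.05. Interferon-stimulated genes (38 of 39 raised) and cholesterol genes (16 of 16 lowered) lie on opposite sides.

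Genes of the interferon response were raised in nearly the whole list. Of 40 interferon-stimulated genes 39 were tested, 38 were raised, and the last, *Trim25*, had a log2 change of 0.48, under the fold limit. The median of the list was 1.21. The number raised was 34 with TMM factors, edgeR or DESeq2, 33 with quantile normalization and 28 at a 2-fold limit. The largest changes were those of *Ifi44*, from 12.7 and 11.4 CPM to 226 and 206 CPM (log2 change 4.06, SE 0.052), and of the oligoadenylate synthetase-like gene *Oasl1*, from 24.9 and 25.7 to 221 and 225 CPM. *Ly6e* (2.88), the exonuclease *Isg20* (2.77) and the ubiquitin-like modifier *Isg15* (2.51) came next. Each was higher in both RANKL libraries than in either basal library. Among members that the study also names, *Mx1* rose from 53.5 and 60.6 to 116 and 134 CPM, *Ifit1* from 81.7 and 71.6 to 254 and 231 CPM and *Ifit2* from 186 and 165 to 381 and 357 CPM. *Eif2ak2*, which encodes the double-stranded RNA kinase PKR, rose from 171 and 156 CPM to 255 and 246 CPM. Its log2 change of 0.61 (SE 0.037) lay just over the limit of 0.585. It was between 0.549 and 0.577, and not called, with TMM factors, quantile normalization, edgeR or DESeq2 and without RANKL replicate 2.

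The interferon genes themselves were at the limit of detection. *Ifnb1* had 1 and 2 reads in the 2 basal libraries and 3 and 5 reads after RANKL, and *Ifna4* had no read in the 4 libraries, which allows up to 3 reads in each. The receptor chains *Ifnar1* (log2 change 0.35) and *Ifnar2* (−0.12) were not called. Of 13 tested genes of interferon receptors and JAK-STAT signaling 6 rose and 1 fell, with a median of 0.35. *Usp18*, which switches the receptor off, rose from 34.4 and 44.0 CPM to 144 and 181 CPM (log2 change 2.03, SE 0.046). *Stat2* had a log2 change of 0.33 and was not called, and *Stat3* fell (−0.73). Among the regulatory factors, *Irf7* rose from 147 and 156 CPM to 1297 and 1355 CPM, 8.76-fold in mean CPM (log2 change 3.12, SE 0.034). *Irf1* rose less (0.65), *Irf9* (0.21) and *Irf3* (−0.04) were not called, and *Irf4* fell from 9.77 and 9.33 to 1.54 and 1.38 CPM.

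Guanylate-binding proteins and immunity-related GTPases, which attack vacuoles of intracellular microbes and respond to interferon-γ as well as type I interferon, were raised in all 14 members, with a median of 2.14. *Gbp6* rose from 1.07 and 0.858 CPM to 22.0 and 20.8 CPM and *Gbp3* from 16.4 and 16.0 to 113 and 103 CPM, and *Gbp4* (2.81), *Gbp5* (2.58) and *Gbp2* (2.50) were close. Near-identical copies such as *Tgtp1* and *Tgtp2* share reads, so their split is uncertain. Antigen presentation by MHC class I moved with them, with 10 of 12 genes raised and a median of 0.99. The peptide-loading chaperone *Tapbp* rose from 338 and 310.0 to 929 and 873 CPM, the heavy chain *H2-K1* from 649 and 729.9 to 1684 and 1852 CPM and the peptide transporter *Tap1* from 85.1 and 105 to 198 and 233 CPM. Class II was mixed, with 3 raised and 2 lowered of 10. Its invariant chain *Cd74* rose from 68.6 and 70.9 CPM to 236 and 229.7 CPM, the transactivator *Ciita* (0.11) and the chains *H2-Aa* (0.35) and *H2-Ab1* (0.10) were not called, and the peptide editor *H2-DMa* fell (−1.19).

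The promoters of the interferon list were searched for the core of the interferon-stimulated response element, GAAANNGAAA, on both strands, in windows from 250 bases before to 50 after the RefSeq start. Of 14 guanylate-binding and immunity-related genes 9 had a window and all 9 held it, as did 14 of the 31 interferon-stimulated genes with a window (45.2%), among them *Isg15*, *Ifit1* and *Eif2ak2*. Over all genes with a window the share was 3.99%, over the raised genes 6.7% and over the lowered genes 2.73%. These are counts of letters, not of bound sites. Shown are the 250 bases before the start of the member of each list with the largest change that held the core there, 5′ to 3′ along the gene, with the core or its reverse complement in capitals. *Gbp3* is at chr3:142559794-142560043 on the plus strand and *Isg15* at chr4:156200819-156201068 on the minus strand of GRCm38.p6.
Gbp3: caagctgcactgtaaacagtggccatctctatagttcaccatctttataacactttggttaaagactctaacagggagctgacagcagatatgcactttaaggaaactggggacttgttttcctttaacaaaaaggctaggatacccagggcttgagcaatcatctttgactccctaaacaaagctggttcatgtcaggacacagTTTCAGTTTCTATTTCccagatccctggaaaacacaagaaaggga
Isg15: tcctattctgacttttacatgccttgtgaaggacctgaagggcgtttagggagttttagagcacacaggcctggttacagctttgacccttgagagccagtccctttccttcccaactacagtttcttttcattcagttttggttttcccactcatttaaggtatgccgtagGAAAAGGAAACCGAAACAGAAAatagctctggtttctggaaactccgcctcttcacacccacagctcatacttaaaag

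Chemokines moved in both directions, with 7 of 17 tested ligands raised and 6 lowered. *Cxcl10* went from 13.4 and 14.5 CPM to 499 and 517 CPM, 36.4-fold in mean CPM, and *Cxcl9*, also known for its induction by interferon-γ, from 0.629 and 0.560 to 11.8 and 8.89 CPM. *Cxcl16* (2.65), *Ccl5* (2.55) and *Ccl8* (1.61) rose, although the rise of *Ccl8* was not called with a pseudocount of 5 CPM. The inflammatory chemokine *Ccl3* fell from 65.2 and 50.3 CPM to 10.9 and 7.36 CPM and its relative *Ccl4* from 29.7 and 31.2 CPM to 5.26 and 5.59 CPM. *Pf4* (−2.17) and *Ccl6* (−1.33) fell as well. Of the receptors, *Cx3cr1* rose from 25.3 and 26.8 to 96.7 and 95.4 CPM, whereas *Ccr2*, the receptor that brings monocytes out of the marrow, fell from 64.9 and 64.3 to 7.36 and 7.59 CPM and *S1pr1* from 145 and 126 to 19.5 and 17.0 CPM. The interleukin-1 receptor antagonist *Il1rn* rose from 15.7 and 12.1 CPM to 255 and 215 CPM. In the complement list *C3* reached 1291 and 1264 CPM from 20.1 and 18.2 CPM and factor B (*Cfb*) 42.1 and 47.5 CPM from 2.78 and 2.76 CPM, while the Fcγ receptors *Fcgr3* (−2.58) and *Fcgr2b* (−2.12) fell. Toll-like receptors moved down, with 8 of 16 genes lowered and 1 raised (median −0.54). *Tlr8* (−1.46), *Tlr13* (−1.23) and *Tlr7* (−1.0), sensors of RNA in endosomes, fell, and the DNA sensor *Tlr9* rose from 18.9 and 16.8 to 42.5 and 36.2 CPM.

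Cholesterol synthesis was lowered throughout. All 16 genes of the list, from the first steps of the mevalonate pathway to its last steps and the regulator *Srebf2*, were lowered, with a median of −1.91 and a range from −2.45 to −0.67. *Insig1*, the sterol-sensing anchor of the SREBP complex, fell from 237 and 251 CPM to 42.5 and 45.6 CPM (log2 change −2.45, SE 0.043). The synthase *Hmgcs1* went from 424 and 376 to 81.5 and 84.2 CPM, *Fdps*, the target of nitrogen-containing bisphosphonates, from 141 and 189.9 to 29.3 and 36.7 CPM, and the demethylase *Cyp51* from 232 and 210.4 to 48.2 and 46.0 CPM. No RANKL library of any of the 16 genes reached a basal library, and the groups did not overlap for 78.3% of all tested genes either. In the list of fatty acid synthesis and sterol efflux 5 of 12 genes fell and 2 rose. The desaturase *Scd2* went from 803 and 774 to 92.6 and 92.1 CPM and the elongase *Elovl6* from 62.5 and 57.1 to 10.1 and 9.09 CPM. *Fasn* (−1.18) and *Acly* (−0.73) also fell. On the side of sterol export, the gene of the liver X receptor α, *Nr1h3*, rose from 3.11 and 4.03 CPM to 59.9 and 68.0 CPM (log2 change 3.83, SE 0.081) and the transporter *Abcg1* from 82.5 and 75.4 to 195 and 191 CPM. The transporter *Abca1* (0.003) and *Apoe* (−0.19) were not called.

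The CCAAT box, which binds NF-Y, a partner of SREBP2 at sterol genes, was found on either strand in each of the 10 cholesterol genes, of 16, that had a promoter window. Over all genes the share was 41.1%, and over the lowered genes 43.5%. The 250 bases before the start of *Insig1*, the member with the largest fall, are shown with CCAAT or its reverse complement in capitals. They lie at chr5:28071162-28071411 on the plus strand.
Insig1: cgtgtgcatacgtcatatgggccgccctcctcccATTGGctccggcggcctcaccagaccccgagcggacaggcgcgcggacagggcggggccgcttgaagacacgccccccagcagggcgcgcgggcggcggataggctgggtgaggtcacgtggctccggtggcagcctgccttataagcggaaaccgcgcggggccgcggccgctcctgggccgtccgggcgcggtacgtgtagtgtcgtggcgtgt

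Scavenging and clearance receptors were lowered in 9 of 15 tested members, with a median of −1.22, and the other 6 were not called. *Gas6*, the ligand that bridges dying cells to MERTK, fell from 1714 and 1852 CPM to 161 and 170.3 CPM (log2 change −3.42, SE 0.033), and the receptor *Mertk* ended at 28.5% of its basal mean. The mannose receptor *Mrc1* fell from 3635 and 3456 to 358 and 355 CPM and the hemoglobin receptor *Cd163* from 9.07 and 9.14 to 0.690 and 0.551 CPM. *Stab1* (−2.48) and the C-type lectin *Clec4e* (−2.25) fell too. *Siglec1*, or sialoadhesin, was at 1273 and 1367 CPM and then 1919.7 and 1912 CPM, a log2 change of 0.54 that missed the fold limit, and *Msr1* was at 0.12. Heme and iron genes were also lowered. Heme oxygenase *Hmox1* went from 1359.9 and 1334 CPM to 238 and 229.9 CPM (log2 change −2.52), *Fth1* from 11414 and 10061 CPM to 3570.5 and 2955 CPM, and 6 of 11 iron genes were lowered and 1 raised. The one that rose was the metalloreductase *Steap4*, from 0.0370 and 0 to 6.40 and 6.57 CPM. Among oxidative stress genes 5 of 14 fell and 2 rose. *Gclm*, of glutathione synthesis, was lowered (−1.47), the oxidase subunit *Ncf4* was raised (1.86), and its catalytic partner *Cybb* stayed at 811 and 781 CPM against 791 and 795 CPM.

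**Figure D4:**
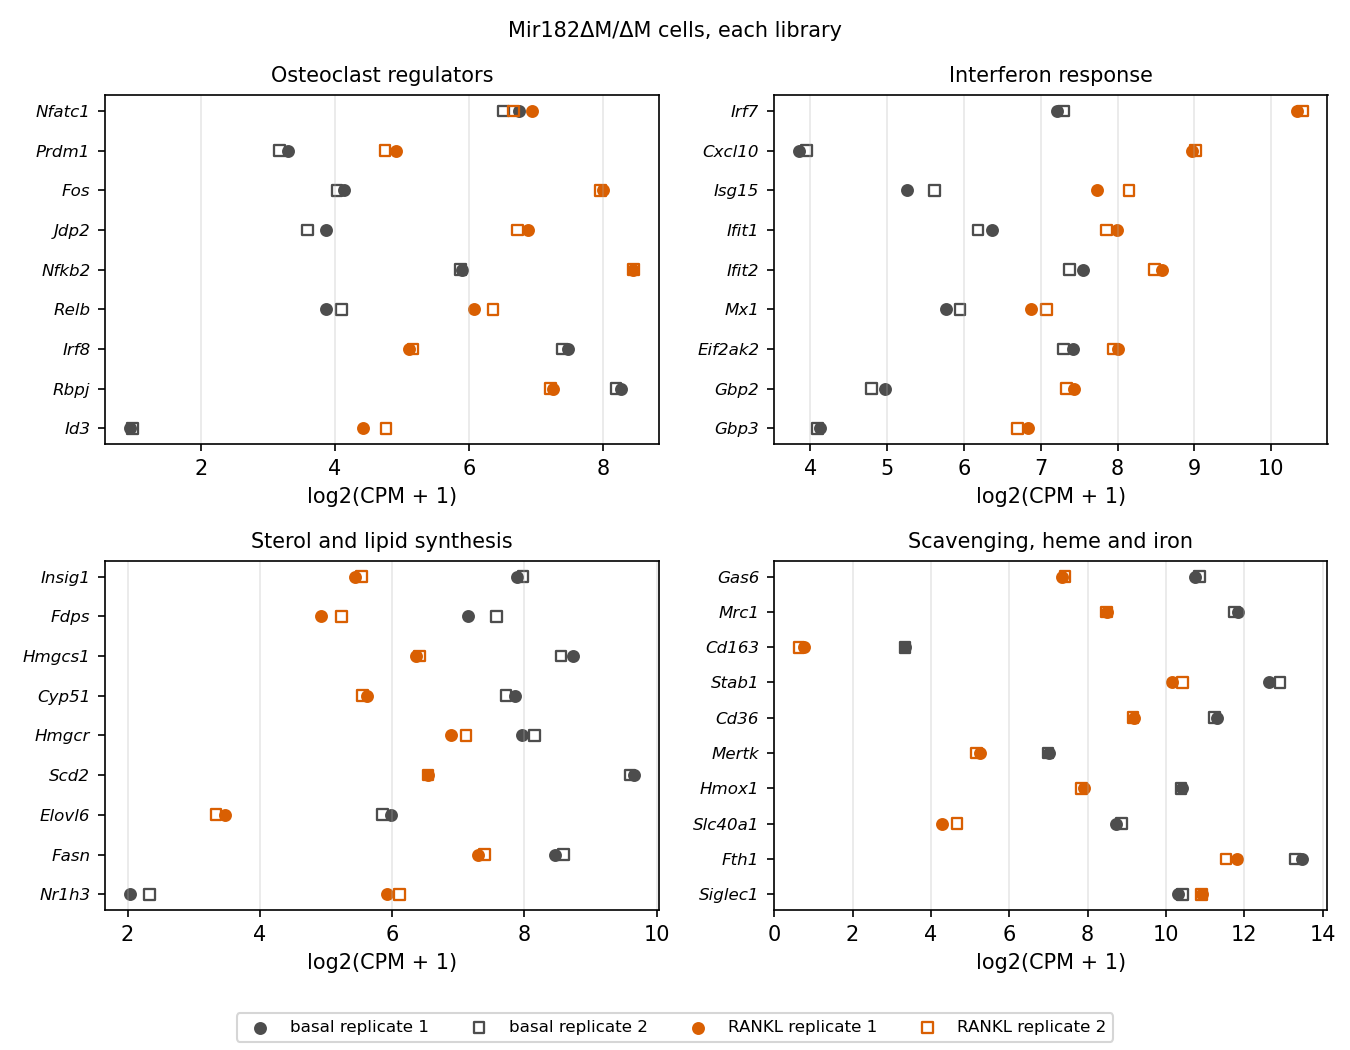
Levels of 37 genes in the 4 Mir182ΔM/ΔM libraries in log2(CPM + 1) (x axis), in panels for osteoclast regulators, interferon response, sterol and lipid synthesis, and scavenging with heme and iron. Grey marks are basal and orange marks RANKL libraries, circles replicate 1 and squares replicate 2. The orange marks lie right of the grey ones in the interferon panel and left of them for most genes of the lower panels, and the marks of Nfatc1 overlap.

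Genes of the cell cycle rose modestly. Of 20 mitosis genes 12 were raised, with a median of 0.69 and a range from 0.14 to 1.07, and of 20 DNA replication genes 12 were raised, with a median of 0.67. Both counts depend on the fold limit. With the adjusted p-value alone 20 mitosis and 19 replication genes were raised. At 2-fold 2 mitosis and 0 replication genes were raised, the 0 by limma at an adjusted or an unadjusted p-value under 0.05 and by edgeR and DESeq2. The ubiquitin ligase component *Ube2c* went from 74.9 and 65.7 CPM to 172 and 128 CPM and the kinesin *Kif20a* from 123 and 115 to 251 and 237 CPM, while the proliferation marker *Mki67* was at 1073 and 822 CPM and 1135 and 938 CPM and was not called. Among replication genes *Tyms* (0.88), *Ccne2* (0.86) and *Mcm7* (0.84) rose most, and *Pcna* had a log2 change of −0.14. Cyclin D1 (*Ccnd1*) rose from 627 and 588 to 1179 and 1095 CPM, whereas cyclin D2 (*Ccnd2*) fell from 20.5 and 19.4 to 3.19 and 3.23 CPM and the inhibitor *Cdkn1b* fell (−0.86). In the promoters, 15 of the 16 mitosis genes with a window held a CCAAT box (93.8%, against 41.1% of all genes). The letters TTTGAA, the core of the cell cycle homology region, were in 12 of 16 (75%, against 20.2%). The 250 bases before the start of *Ube2c*, the member with the largest change that held both, show CCAAT and TTTGAA, on either strand, in capitals. They lie at chr2:164769679-164769928 on the plus strand.
Ube2c: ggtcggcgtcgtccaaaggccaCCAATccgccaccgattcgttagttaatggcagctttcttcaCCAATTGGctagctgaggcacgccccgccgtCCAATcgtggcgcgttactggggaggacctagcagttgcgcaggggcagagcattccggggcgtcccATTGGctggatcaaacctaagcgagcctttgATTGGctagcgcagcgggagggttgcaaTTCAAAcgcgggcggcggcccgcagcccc

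In energy metabolism, 7 of 15 tested glycolysis genes rose and 1 fell (median 0.52). The lactate exporter *Slc16a3* rose from 45.9 and 51.1 CPM to 135 and 146 CPM and lactate dehydrogenase *Ldha* from 478 and 553 to 918 and 1108 CPM, and hexokinase 3 (*Hk3*) fell from 422 and 521 to 122 and 149 CPM. Of 25 oxidative phosphorylation genes 2 were raised, cytochrome c (*Cycs*, 1.16) and cytochrome c1 (*Cyc1*, 0.86). The other 23 were not called, and their list median was 0.26.

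The markers of other cells give the frame for these values. In bulk RNA, fewer cells of a type and less RNA per cell cannot be told apart. Of 10 macrophage markers *Adgre1*, *Csf1r*, *Cd68*, *Itgam* and *Fcgr1* were not called, while the transcription factor *Spi1* and the lysozyme *Lyz1* rose and *Cd14*, *Mrc1* and *Mertk* fell. The neutrophil granule genes were present at low level in basal cells, with a summed level of 115.2 and 109.6 CPM that was 7.19 and 7.36 CPM after RANKL, and all 7 tested were lowered. *Mpo* fell from 19.9 and 19.2 to 0.361 and 0.0787 CPM and *Ngp* from 34.5 and 28.4 to 2.46 and 1.73 CPM. Stromal markers summed to 4.03 and 23.0 CPM in basal and to 20 and 37.7 CPM in RANKL libraries, of which the collagen *Col1a1* was 1.37 and 9.37 CPM and then 5.35 and 13.6 CPM. The call of *Col1a1* was lost without the block, with a pseudocount of 5 CPM and without basal replicate 1. Of 5 tested stromal markers 4 were raised, *Col1a1* among them, with a median log2 change of 0.96, and *Col3a1* was not called. Of the endothelial markers the VEGF receptor *Kdr* rose from 5.62 and 5.97 CPM to 101 and 101 CPM, while *Cdh5*, *Emcn*, *Pecam1* and *Tek* were at or under 4.14 CPM in every library, *Cdh5* and *Emcn* being raised at that level. B cell, T cell, natural killer, mast cell, erythroid and megakaryocyte markers each summed to under 5 CPM in all 4 libraries. The part of these cells in the changes was not tested.

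The response of WT cells to RANKL is the natural comparison, with a limit. The WT RANKL libraries stand apart from the other groups. *Lyz2*, the locus that carries the LysMcre knock-in, was at 34.6 and 31.2 CPM in Mir182ΔM/ΔM basal, 24.0 and 22.5 CPM in Mir182ΔM/ΔM RANKL and 44.0 and 39.8 CPM in WT basal libraries, but at 4117 and 4288 CPM in WT RANKL libraries. *Ifi202b*, a gene whose expression differs between inbred mouse strains, was at 101 and 82.1 CPM in Mir182ΔM/ΔM basal, 152 and 143 CPM in Mir182ΔM/ΔM RANKL and 112 and 93.4 CPM in WT basal libraries, but at 1.12 and 0.972 CPM in WT RANKL libraries. Whether the WT RANKL cells, or those of the other groups, came from mice of the labelled genotype and strain cannot be settled here. The genotype and the origin of the WT RANKL libraries therefore cannot be told apart in any difference of response. RANKL raised 25.4% and lowered 13.8% of 11691 genes in WT cells by the same limits, and for 58.9% of them the 2 responses differed at an adjusted p-value of limma under 0.05, higher in Mir182ΔM/ΔM cells for 16.1% and lower for 42.8%. Without the replicate block the share that differed was 24.6% (2875 genes in place of 6889). Of the 2046 genes raised in Mir182ΔM/ΔM cells 1534 were also raised in WT cells, 75% of the former and 55.6% of the latter among genes tested in both. Of the 1816 lowered genes 1176 were lowered in both, 64.8% and 74% of the lists. Calls of opposite direction were few, 50 genes raised in Mir182ΔM/ΔM and lowered in WT cells and 24 the other way.

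**Figure D5:**
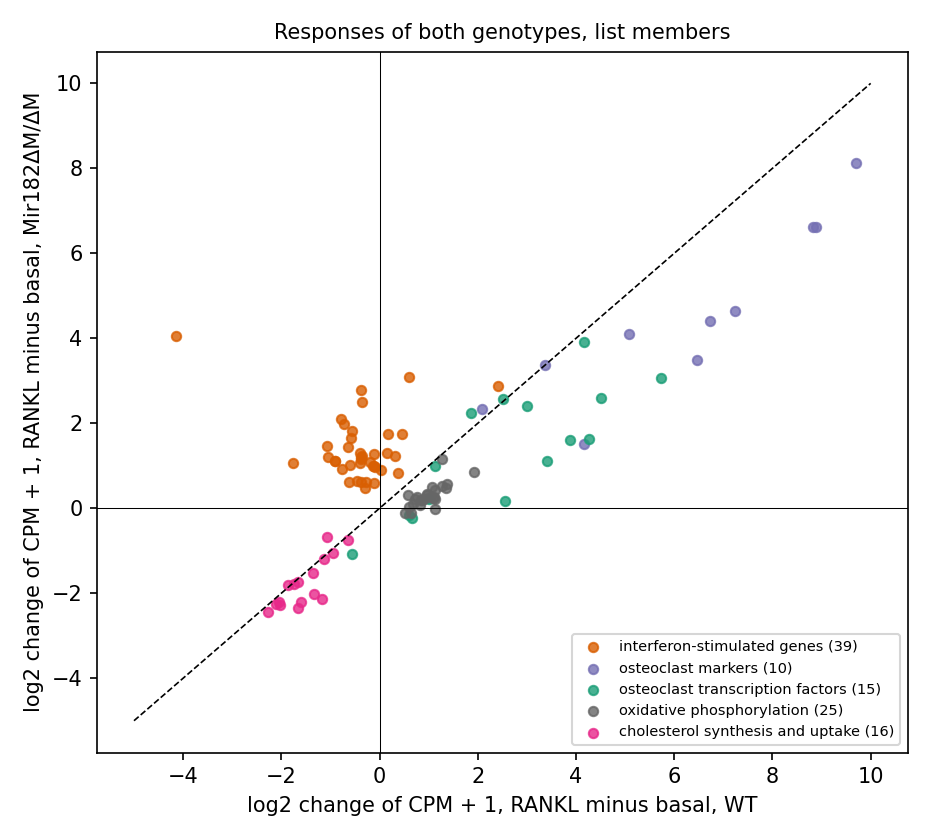
Log2 change of CPM + 1 with RANKL in WT cells (x axis) and in Mir182ΔM/ΔM cells (y axis) for the tested members of 5 lists, with the line of equal change dashed. The 39 interferon-stimulated genes lie above the line, most osteoclast markers and the 25 oxidative phosphorylation genes lie below it, and the 16 cholesterol genes are lowered in both.

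The lists differed in how the responses compared. For interferon-stimulated genes the response was higher in Mir182ΔM/ΔM cells in all 39 tested members, or in 38 without the replicate block, and in WT cells 2 of them were raised and 12 lowered, with a median of −0.37 against 1.21. The log2 change of *Irf7* was 3.12 in Mir182ΔM/ΔM and −0.24 in WT cells, and that of *Cxcl10* 5.09 and 1.31. *Ifi44* rose by 4.06 in one genotype and had a WT log2 change of −4.15, from 66.4 and 62.9 CPM to 2.83 and 2.56 CPM. Osteoclast markers rose in both genotypes, but for 8 of 10 the rise was smaller in Mir182ΔM/ΔM cells and for 1 it was larger, with medians of 4.25 and 6.59. Without the block the rise was smaller for 8. The calcitonin receptor *Calcr* (3.37 and 3.38) and *Mycl* (6.33 and 6.40) had close values, and the differences had an SE of 0.17 and 0.15 and limma adjusted p-values of 0.99 and 0.72, in a fit with 2 replicates a group. Of the oxidative phosphorylation genes 2 of 25 were raised in Mir182ΔM/ΔM cells and 23 of 25 in WT cells, and the difference passed for 24, or for 14 without the block. Cholesterol genes were lowered in all 16 members in both genotypes, with medians of −1.91 and −1.62. The fall was significantly larger in Mir182ΔM/ΔM cells for 9 of the 16 genes and smaller for 1, and without the block for 3 and 1. Among all tested genes the response was lower in Mir182ΔM/ΔM cells for 42.8%, and 24.6% differed without the block. A deeper fall of this list is therefore not read from these counts.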

How the data were processed

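RNA-seq libraries of Mir182ΔM/ΔM BMMs were compared. WT libraries entered the test of the difference, the fit over 8 libraries and the fits that left out a library. Per the labels, replicate 1 was poly-A RNA and replicate 2 total RNA, whereas the protocol describes poly-A selection. The tools listed by the authors include TopHat, Cufflinks, HISAT2, HTSeq and edgeR, with mm10. The authors deposited CPM per gene and, for replicate 1, RPKM beside it. The CPM gave whole reads for 100% of values within 0.05, and 27 names turned into dates were not named.

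Genes with 1 CPM in at least 2 samples were fitted with limma 3.58.1 (trend) on log2(CPM + 1), with the replicate number as a block. The difference of replicate 2 from replicate 1 correlated between the basal and RANKL groups with r of 0.702 over genes (0.692 to 0.758 between any 2 of the 4 groups), and the labels give each number its own RNA type. Calls needed a Benjamini-Hochberg adjusted p-value under 0.05 and a 1.5-fold change. Alternatives were edgeR 4.0.16 and DESeq2 1.42.0 on recovered reads, other scalings, pseudocounts and filters, and leaving out each library. The fits were tested on simulated data in which all genes had the same dispersion. This could not show how they behave where genes differ in scatter.

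Named were the 15 largest rises and falls with at least 5 CPM, genes the study names for RNA-seq or qPCR, the 10 highest RPKM, and of each list up to 5 raised and 5 lowered members plus members not called. *Car2* was added after its values were seen. Samples and lists were chosen with earlier results of these data known. Promoter and miRNA sequences are from RefSeq, GRCm38.p6. A few list members are not reported here by name.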

Additional observations from a re-analysis of the deposited data

Results flagged for a closer look

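For 15 of 42 genes named for their size of change or by the study, the fold response to RANKL differed at least 4-fold between Mir182ΔM/ΔM and WT cells. That is a difference of at least 2 between the log2 changes, by the interaction term of limma over the 8 libraries (adjusted p-value under 0.05). For 37 of the 42 the difference passed at any size, against 58.9% of all tested genes, and 1.80% of all tested genes differed at least 4-fold. The 42 genes include those with the largest changes in the same Mir182ΔM/ΔM libraries, and the study named several on these libraries, so neither share is independent of that choice. The WT RANKL libraries stand apart in *Lyz2* and *Ifi202b*, and the part of their origin in these differences was not tested.

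The Mir182ΔM/ΔM response minus the WT response was −2.64 for *Atp6v0d2*, −2.60 for *Dcstamp*, −2.31 for *Ocstamp*, −2.28 for *Ctsk* and −2.19 for *Acp5*, all raised in both genotypes. It was −2.38 for *Nfatc1*, called in WT cells only, and −2.28 for *Prdm1*. The falls of *Chil3* and *Atp2a3* were deeper in Mir182ΔM/ΔM cells, with differences of −2.03 and −2.03. The difference was positive for *Cxcl10* (3.78), *Irf7* (3.36), *Ifit2* (2.84), *Gfra2* (2.61), *Ifit1* (2.23) and *Mx1* (2.02). Of these, *Mx1* and *Ifit2* were lowered in WT cells.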

How the results depend on the processing

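The calls rest on 2 replicates a group and 1 residual degree of freedom, and the depth limits genes near 3 reads. The counts depend most on the fold limit. With the adjusted p-value alone 4906 genes rose and 4175 fell, and with a 2-fold limit 946 rose and 904 fell. In the same order, 20 and 2 mitosis genes and 19 and 0 DNA replication genes were raised (the 0 by limma at an adjusted or an unadjusted p-value under 0.05 and by edgeR and DESeq2), and MHC class I had 6 at 2-fold.

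Without the replicate block 2016 genes rose and 1808 fell, and the responses of both genotypes differed for 2875 genes in place of 6889. Leaving out 1 library gave 2027 to 2066 raised, 1828 to 1841 lowered and 5964 to 6729 differing genes. Raised and lowered counts were 1871 and 1956 with TMM factors, 1852 and 1991 with quantile normalization, 2028 and 2160 with edgeR and 1957 and 1989 with DESeq2. The median log2 change of all genes was 0.05, 0.006 with TMM factors and −0.001 with quantile normalization. Over other scalings, pseudocounts, filters, fits and left-out libraries, with the fold limit kept at 1.5, 219 of 234 named genes kept their call and none turned direction among 3736 values. Many of these genes were named for large changes, so this share does not stand for all genes. With a pseudocount of 5 CPM, 1555 of the 2046 raised and 1309 of the 1816 lowered genes kept their call. Among the named genes, calls that were lost include *Snx10* (0.53 to 0.58 in 7 alternatives). *Ctsb*, *Ctsd* and *Psap* lost theirs under quantile normalization, where *Actb* (0.63) and *Gpnmb* (0.83) passed. The cause was not tested.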

Other observations

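The BCL2 family, which sets the threshold for cell death, moved in both directions, with 3 of 13 tested genes raised and 5 lowered. The BH3-only gene *Pmaip1* went from 8.18 and 7.24 CPM to 50.7 and 54.4 CPM (log2 change 2.62, SE 0.074), while the survival gene *Bcl2* went from 35.6 and 32.6 to 5.26 and 5.82 CPM (−2.42). *Mcl1* was not called, at 648 and 602 CPM and then 891 and 852 CPM. Of 6 FoxO and Mastermind genes 3 fell, *Foxo3* (−1.27), *Foxo4* (−1.45) and the Notch coactivator *Maml2* (−1.88).

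Of 12 tested genes of the eIF2α kinases and their stress response 3 rose and 2 fell, with a median log2 change of −0.15. *Atf3* was at 117 and 146 CPM in basal and 41.3 and 53.4 CPM in RANKL libraries (log2 change −1.46), and asparagine synthetase *Asns* rose from 23.2 and 22.9 CPM to 43.0 and 45.0 CPM (0.90). Apart from *Eif2ak2*, the kinase genes *Eif2ak1*, *Eif2ak3* and *Eif2ak4* were not called. The ribosomal RNA precursor *Rn45s* was at 742 and 13986 CPM in the basal and 908 and 9778 CPM in the RANKL libraries of replicates 1 and 2, so it differed between the replicates and was not called for RANKL.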
